A study of Mus musculus with 6 samples.

Results

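Crystallins and lens fibre genes are 32 genes chosen by name, from the proteins that fill and shape the fibre cells of the eye lens, and they were followed here in whole adult mouse retina. They comprise 2 α-, 6 β- and 8 γ-crystallin genes and 3 enzyme-related crystallins. A further 11, called lens-only fibre genes here, have little known use outside the lens, and Foxe3 among them is a factor of the lens epithelium. The other 2 are lens genes (Hsf4 and Tdrd7) that many tissues express. Of the 32 genes, 28 had a probe set of their own on the array, among 18193 genes so named in the whole series, and each gene was read from the probe set that was brightest over all arrays. Cryge, Lgsn and Lctl had no probe set, and the only one of Crygc also matches Crygb, so these 4 genes have no value. The expression filter, a mean log2 intensity over 7 in either genotype, was passed by 21 of the 28, and Cryga, Crygn, Birc7, Gja3, Hsf4, Dnase2b and Foxe3 lay below it.

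The α-crystallins are small heat shock proteins that keep other proteins from aggregating, and the β- and γ-crystallins are compact structural proteins built from a shared fold. All 3 families are packed into lens fibres, where they make the lens clear and refractive, and their transcripts are also known from retinal neurons and glia, in amounts that vary widely between preparations and with injury. Fibre cells further need the beaded filament proteins Bfsp1 and Bfsp2, the water channel Mip and the membrane protein Lim2. The enzyme-related crystallins are metabolic proteins that some species also use in the lens: Crym binds thyroid hormone, Cryz is a quinone reductase and Cryl1 a sugar dehydrogenase.

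Total RNA of adult retinas was hybridised to 3 arrays from OC2-KO mice, which carry null alleles of the transcription factor gene Onecut2, and 3 arrays from their wildtype littermates, OC2-WT. The methods name no tissue-restricted deletion, and strain and sex are not given in the labels. Separate animals per array are not stated, and the p-values therefore describe array-to-array spread, part of which may be technical. The question put to the lens genes was whether their levels in these retina samples differ when Onecut2 is missing.

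Over all genes, 209 of 21176 probe sets passed an unadjusted p of 0.05 in limma (0.987%), 140 of them higher and 69 lower in OC2-KO, and none passed after Benjamini-Hochberg adjustment (0%), the smallest adjusted p being 0.210. The methods' t-test called 300 before and 0 after adjustment. Onecut2 itself read 5.28 to 7.01 in OC2-WT against 8.52 to 9.23 in OC2-KO over 3 probe sets (log2 intensity). Those probe sets lie at the 3′ end of the gene, outside what the study describes as lost, and so do not check the genotype. Same-numbered arrays deviated from their genotype means together and are called pairs, although the SEs and p-values come from a fit without pairs unless the replicate block is named. The Actb 3′ over 5′ log2 ratio, a sign of RNA degradation, was 2.95 and 3.39 on both arrays of pair 3 and 0.71 to 1.41 on the other 4. By Xist, which the inactive X chromosome transcribes, WT 1, KO 1 and KO 3 had a low level (6.68 to 7.16) and WT 2, WT 3 and KO 2 a high one (13.70 to 14.53). Eif2s3y, a gene of the Y chromosome, read 9.52, 8.88 and 9.62 on WT 1, KO 1 and KO 3 and -0.03 to 3.26 on the others. By both genes WT 1, KO 1 and KO 3 read as male and the others as female, so sex was not balanced between the genotypes. For the crystallins, array WT 3 stood apart from the other 5, so results that rest on it are given with and without it.

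Crym was the only one of the 21 genes that passed the unadjusted test. It read 10.57, 10.78 and 10.34 on WT 1, 2 and 3 and 11.24, 11.38 and 11.16 on KO 1, 2 and 3 (log2 intensity). Every OC2-KO array lay above every OC2-WT array. The difference was 0.70 ± 0.21 (log2, SE, n = 3 against 3), which is 1.62-fold, with an adjusted p of 1.00 in limma, so Crym did not pass the adjusted test. Within the pairs the log2 difference was 0.67, 0.61 and 0.82. One called gene in 21 stands beside 0.987% of all probe sets, and 1 in 21 with the replicate block beside 4.19%. Groups that did not overlap with OC2-KO above were seen for 1 of the 21 genes against 1.72% of all probe sets, and with OC2-KO below for 0 of 21 against 1.56%. Crym stayed past the unadjusted p with any single array left out, at differences of 0.59 to 0.81, and did not pass with any 1 pair left out, where 2 arrays faced 2. The study also lists Crym among the genes higher in OC2-KO from these same arrays, so its call is not independent of that list. Among markers of astrocytes and gliosis, 4 of 5 measured were called higher (Gfap, Cd44, Edn2 and Cebpd), beside 0.987% of all probe sets. The study reports these genes as higher from these same arrays, so their calls are not independent of it. The list summed to 876 to 1076 in OC2-WT against 2908 to 6472 in OC2-KO, where most came from Edn2 and Cebpd. By pair Gfap differed by 2.49, 1.42 and 0.28 and Cd44 by 0.36, 1.37 and 1.51. Edn2 differed by 3.66, 2.97 and 2.76 and Cebpd by 3.38, 2.40 and 2.10. Of the horizontal cell markers, 2 of the 4 past the filter were called lower (Calb1 -0.76 and Septin4 -0.57). The list summed to 11053 to 13168 in OC2-WT against 6535 to 8702 in OC2-KO. The study likewise reports Calb1 and Septin4 as lower from these same arrays. Of the microglial markers, 1 of the 4 past the filter was called higher (Tyrobp 1.05), with sums of 1180 to 1858 against 1860 to 2529. The part of these cell types in the Crym difference was not tested. Thra, a thyroid hormone receptor gene, read 11.84, 11.87 and 12.06 in OC2-WT against 11.51, 12.03 and 12.39 in OC2-KO, and neither it nor Dio2, the enzyme that activates the hormone, passed the test.

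The other enzyme-related crystallins did not pass. Cryl1 was a little higher in OC2-KO in each pair (0.13, 0.19 and 0.41 log2), with a difference of 0.25 ± 0.21 (SE). Its other probe set past the filter differed by 0.48 and those below the filter by -0.68 and 1.31. Cryz read 9.93, 10.97 and 11.03 in OC2-WT against 10.49, 10.10 and 10.36 in OC2-KO, and its sign turned between pair 1 (0.56) and pairs 2 and 3 (-0.87 and -0.67). This brightest Cryz probe set differed by -0.33, and a dimmer one, also past the filter, by -0.08.

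The α- and β-crystallins had higher mean values in OC2-KO in all 8 genes, and none passed the test. Their differences were 0.65 to 0.98 (log2), with standard errors of 0.57 to 1.15. Cryaa, the lens α-crystallin, read 13.59, 12.78 and 9.06 in OC2-WT against 12.38, 13.72 and 11.73 in OC2-KO. Cryab, the α-crystallin that many tissues express, read 13.52, 12.25 and 11.18 in OC2-WT against 12.45, 13.12 and 13.35 in OC2-KO. In Cryaa WT 1 and WT 2 lay among the OC2-KO arrays, and in both genes WT 3 lay below all of them.

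The 6 β-crystallin genes followed the same order in OC2-WT. Cryba1 read 13.81, 12.56 and 10.85 in OC2-WT against 13.15, 13.28 and 13.52 in OC2-KO, and Crybb2, the main basic β-crystallin of the mature lens, 13.88, 12.61 and 10.19 against 13.33, 13.68 and 12.60. Cryba2 read 12.60, 11.88 and 8.59 against 11.50, 12.68 and 11.26. WT 1 was the highest of all 6 arrays in 5 of the 6 genes and WT 3 the lowest in all 6. The span within OC2-WT was 20.0-fold for Cryba4 (11.45, 10.43 and 7.13), 13.3-fold for Crybb1 (11.51, 10.15 and 7.78) and 7.52-fold for Crybb3 (11.12, 9.82 and 8.21). Within OC2-KO the same genes spanned 1.80-, 1.57- and 1.37-fold. The OC2-KO values of these 3 genes thus lay close together, between WT 1 and WT 3.

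**Figure D1:**
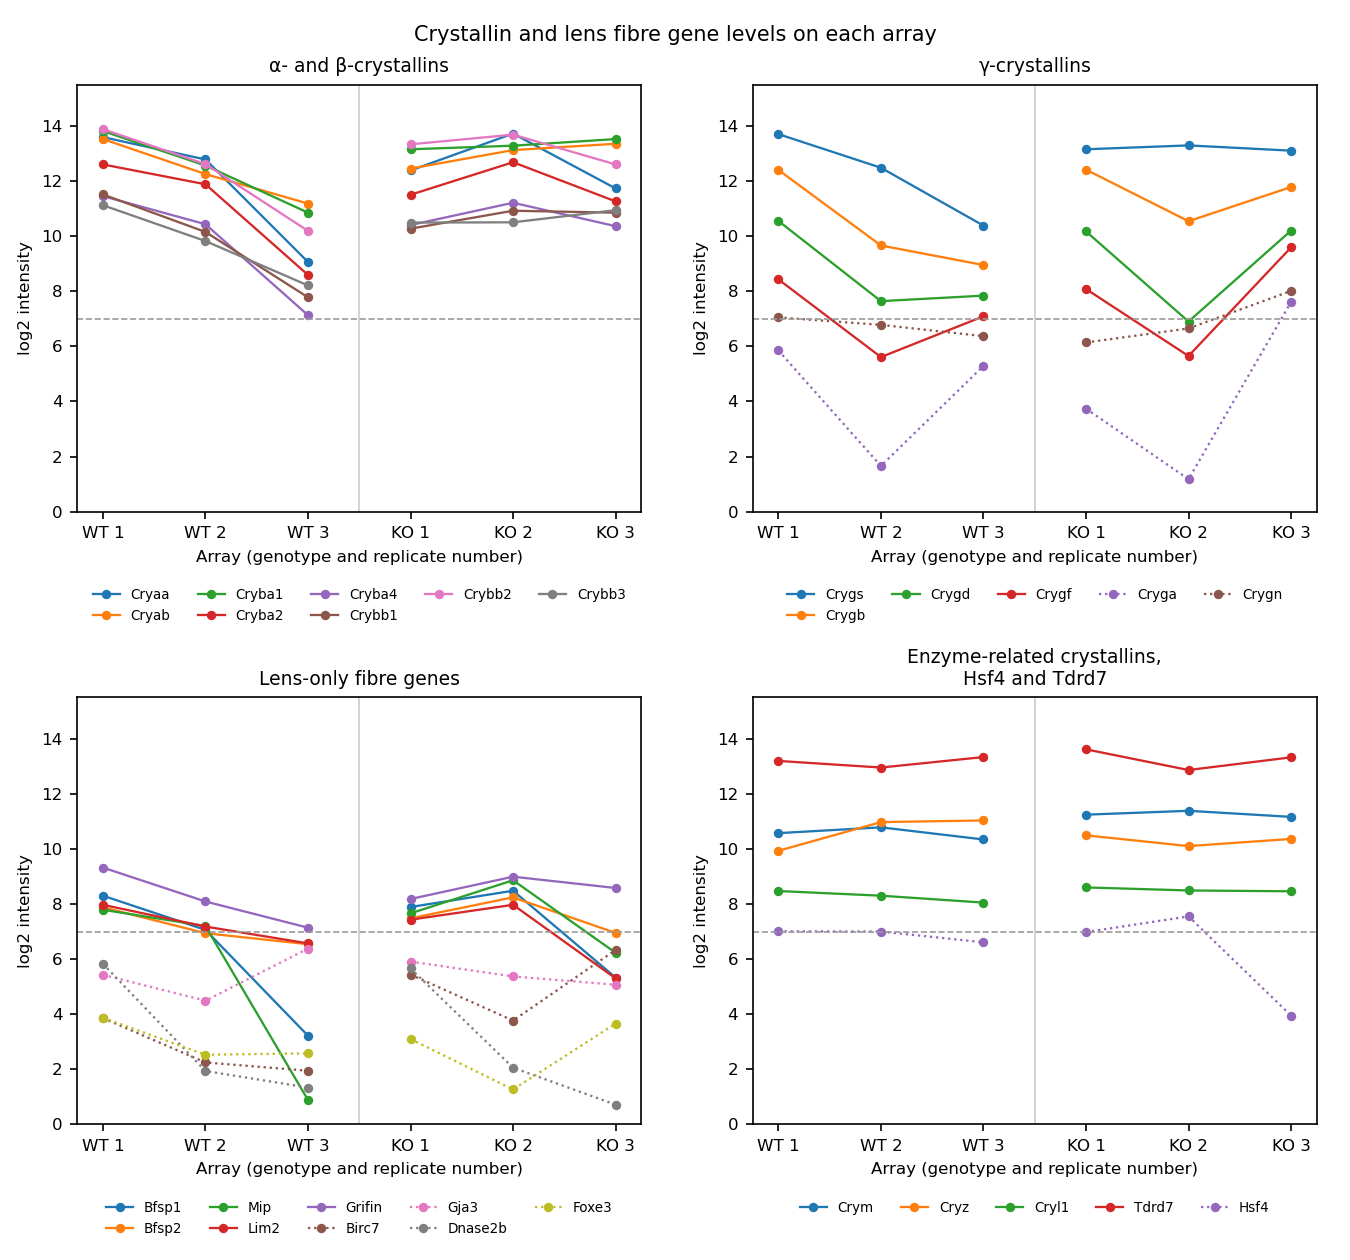
Log2 intensity of the 28 measured genes on each of the 6 arrays, by group; lines join the arrays of a genotype for 1 gene and carry no order, dotted lines mark genes below the filter, and the dashed line is the filter at 7. The α- and β-crystallins lie lowest on WT 3, Crygb, Crygd and Crygf are high on WT 1, KO 1 and KO 3, and Crym is higher on all 3 OC2-KO arrays; heights are not comparable between genes, since each probe set has its own brightness.

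Promoters of 29 of the 32 genes were in a RefSeq table (GRCm38.p6), and Cryab, Crym and Hsf4 were not among them. Shown first are the 120 bases before the start of Cryaa, Cryba1 and Crygs, which varied together across the arrays, 5′ to 3′ in the direction of the gene. Capitals mark matches on either strand to the letters of the TATA box, searched as TATAAA or alternatively as the variant TATATA, whereas the further capitals mark TGCTGA, which is the core of the site that Maf factors of lens fibres bind.
Cryaa (chr17:31677811-31677930, plus strand): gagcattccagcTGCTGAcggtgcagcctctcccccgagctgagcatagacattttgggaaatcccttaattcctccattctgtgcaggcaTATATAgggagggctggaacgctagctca
Cryba1 (chr11:77725294-77725413, minus strand): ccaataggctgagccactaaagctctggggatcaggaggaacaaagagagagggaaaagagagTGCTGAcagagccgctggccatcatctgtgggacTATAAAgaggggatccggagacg
Crygs (chr16:22811411-22811530, minus strand): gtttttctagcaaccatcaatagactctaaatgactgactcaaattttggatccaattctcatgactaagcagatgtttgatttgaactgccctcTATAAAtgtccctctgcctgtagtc
The TATA letters begin 29 bases before the start in Cryaa, 23 in Cryba1 and 25 in Crygs. Cryaa and Cryba1 also hold TGCTGA within these 120 bases. Over the full 250 bases before the start, TGCTGA on either strand was found in 10 of 15 crystallin promoters of the α, β and γ families, in 5 of 11 lens-only genes and in 16.1% of all 32851 promoters. TATAAA was in 3 of the 15, against 12.4% of all promoters, and TATATA in 8 of the 15, against 5.25%, and a window can hold both. A match is only a match of letters, and Crybb2 and Mip had none of the 3 within 120 bases.

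Crygs, the γ-crystallin of secondary fibres, behaved like the β-crystallins, at 13.70, 12.48 and 10.38 in OC2-WT against 13.15, 13.29 and 13.10 in OC2-KO. Its OC2-KO arrays spanned 1.13-fold and its OC2-WT arrays 3.32 log2 units. The difference of 0.99 ± 0.75 (SE) fell to 0.09 without WT 3.

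Crygb, Crygd and Crygf, γ-crystallins of the primary and early fibres that lie on chromosome 1, followed another order. Crygb read 12.40, 9.66 and 8.95 in OC2-WT against 12.41, 10.54 and 11.78 in OC2-KO. Crygd read 10.55, 7.64 and 7.84 against 10.17, 6.90 and 10.20, and Crygf 8.43, 5.61 and 7.09 against 8.08, 5.65 and 9.59. All 3 were high on WT 1, KO 1 and KO 3 and low on WT 2, WT 3 and KO 2, the arrays with low and with high Xist. From WT 1 to WT 2 they dropped by 2.74, 2.91 and 2.82, and from KO 1 to KO 2 by 1.87, 3.27 and 2.43 (log2), figures that for the α- and β-crystallins were 0.72 to 1.37 and -1.34 to -0.01. Every low-Xist array lay above every high-Xist array in 3 of the 4 γ-crystallins past the filter, in 0 of the 8 α- and β-crystallins and in 6.57% of all probe sets. The reverse order, every low-Xist array below, held in 12.6% of all probe sets. Of the 28 genes with a value 5 had low-Xist arrays above, Birc7 and Foxe3, both below the filter, being the others. The split was noticed in the values, and the part of sex in it was not tested.

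With genotype compared within each Xist level, Crygd had lower values in OC2-KO at both (-0.36 at the low and -0.84 at the high level), while Crygb and Crygf changed sign between them. WT 1 was the only OC2-WT array at the low level and KO 2 the only OC2-KO array at the high level. A fit with the Xist level as a term, chosen after seeing the data, called 2 of the 21 genes at an unadjusted p of 0.05, against 1.29% of all probe sets: Crym at 0.73 and Crygd at -0.60. Because the split of Crygd had been seen in these same values, its call is no independent result and the share of all probe sets is no measure of it. In the fit without the term the Crygd difference was 0.41 ± 1.09 (SE). Crygd, Cryge and Crygf are related genes, whose transcript sequences were not compared here. The Crygf probe set carries the array maker's mark for probes that may bind other transcripts, so the separate levels of Crygd and Crygf are uncertain. The shared probe set of Crygb and Crygc differed by 1.16 between the genotypes, close to the 1.24 ± 0.91 (SE) of Crygb's own.

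The promoters of these 3 genes are shown because the genes moved together and apart from the other crystallins; the letters are marked as above.
Crygb (chr1:65082291-65082410, minus strand): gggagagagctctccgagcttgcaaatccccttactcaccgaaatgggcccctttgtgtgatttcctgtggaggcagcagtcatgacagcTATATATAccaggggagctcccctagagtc
Crygd (chr1:65063441-65063560, minus strand): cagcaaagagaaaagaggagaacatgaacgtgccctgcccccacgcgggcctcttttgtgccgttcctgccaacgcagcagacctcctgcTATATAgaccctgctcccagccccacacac
Crygf (chr1:65926402-65926521, plus strand): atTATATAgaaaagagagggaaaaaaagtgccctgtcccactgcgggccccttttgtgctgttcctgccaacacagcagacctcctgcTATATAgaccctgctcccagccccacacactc
TATATA begins 30 bases before the start in Crygb and Crygd and 32 in Crygf. All 6 promoters of Cryga to Crygf held it within 250 bases. Crygd and Crygf share a run of 45 bases, from 45 and 47 bases before the start, that no other of the 32851 promoters holds. Crygb shares with both of them a run of only 8 bases, which 0.435% of promoters hold. TGCTGA was found in 2 of the 6, Cryga and Crygc.

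The remaining γ-crystallins were below the filter. Cryga read 5.85, 1.66 and 5.29 in OC2-WT against 3.74, 1.18 and 7.61 in OC2-KO, and Crygn, an evolutionary relative of both the β- and γ-families, 6.14 to 8.01 over all 6 arrays. Neither differed beyond its spread.

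The spread between arrays of 1 genotype was the main feature of the crystallins. All 12 α-, β- and γ-crystallins past the filter spanned over 2 log2 units across the 6 arrays, as 8.43% of all probe sets did. WT 3 was the lowest array in 10 of the 12, against 21.8% of all probe sets, and lay more than 2 log2 units below the mean of WT 1 and WT 2 in 9 of the 12, against 1.83%. The median genotype difference of the 14 crystallins with a value was 0.83, beside -0.01 over all probe sets. Without WT 3 it was 0.05, with 8 of 14 positive, and 5 of the 8 α- and β-crystallins turned negative (Cryaa -0.57, Cryba2 -0.43, Cryba4 -0.29, Crybb1 -0.15 and Crybb2 -0.04). Without WT 1 it was 1.62, and 10 genes passed the unadjusted p where 1.35% of all probe sets did: Cryab, Cryba1, Crybb1, Crybb2, Crybb3, Crygb, Crygs, Grifin and Crym were higher and Cryz lower. Without WT 3 Crym alone passed, against 1.15% of all probe sets. The direction and the calls of the crystallins thus rested on which OC2-WT array was kept.

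**Figure D2:**
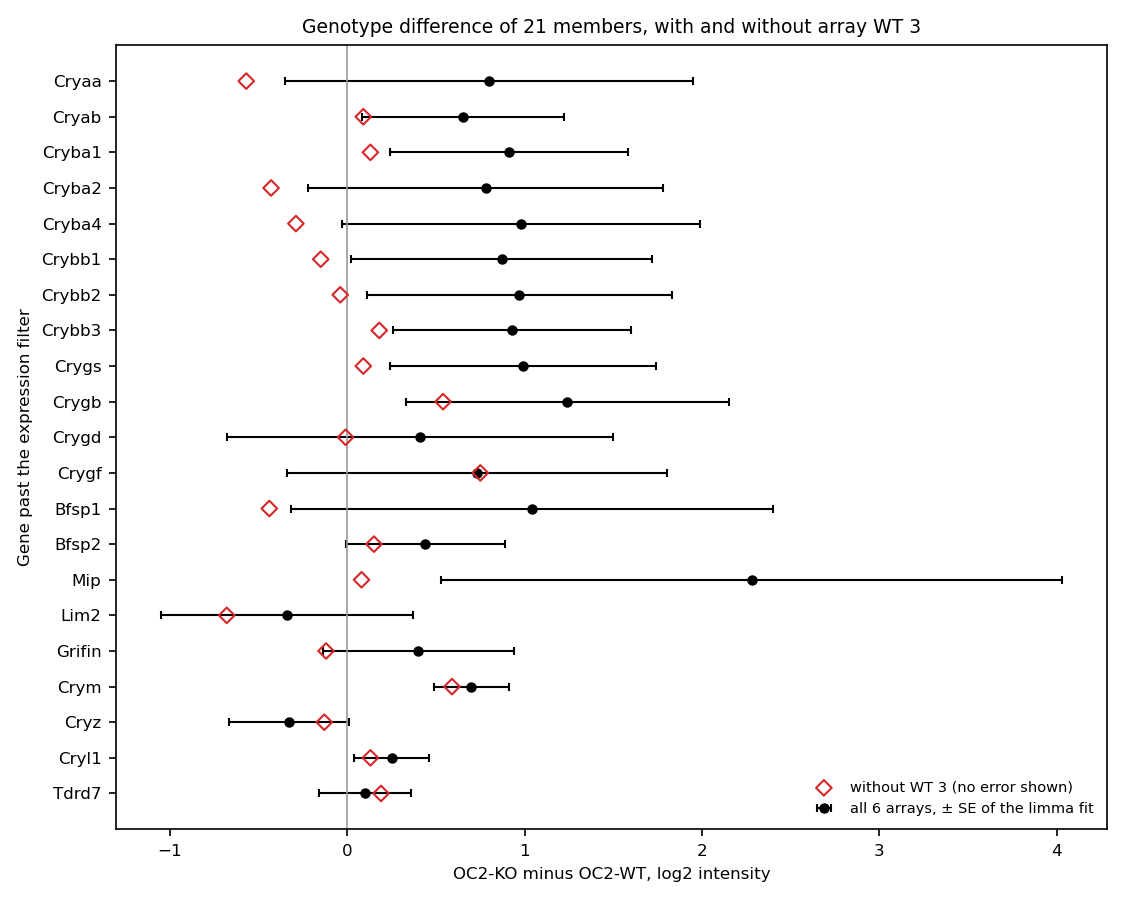
Difference between OC2-KO and OC2-WT (log2 intensity) for the 21 genes past the filter; filled points with bars are the limma estimate ± SE over all 6 arrays and open diamonds the value without WT 3. Most crystallin points move to near or below 0 without WT 3, while Crym moves only from 0.70 to 0.59.

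Within the pairs the crystallins moved in different directions. The median difference of the 14 was -0.79 in pair 1, with 1 of 14 positive, 0.77 in pair 2, with 11 positive, and 2.67 in pair 3, with all 14 positive. Over all probe sets these medians were -0.02, -0.00 and -0.00. The α- and β-crystallins were lower in OC2-KO in pair 1 and higher in pairs 2 and 3 in 8 of 8 genes. Crym, Cryl1, Crygb and Birc7 were the genes with OC2-KO above in all 3 pairs, Crygb by 0.01 in pair 1.

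**Figure D3:**
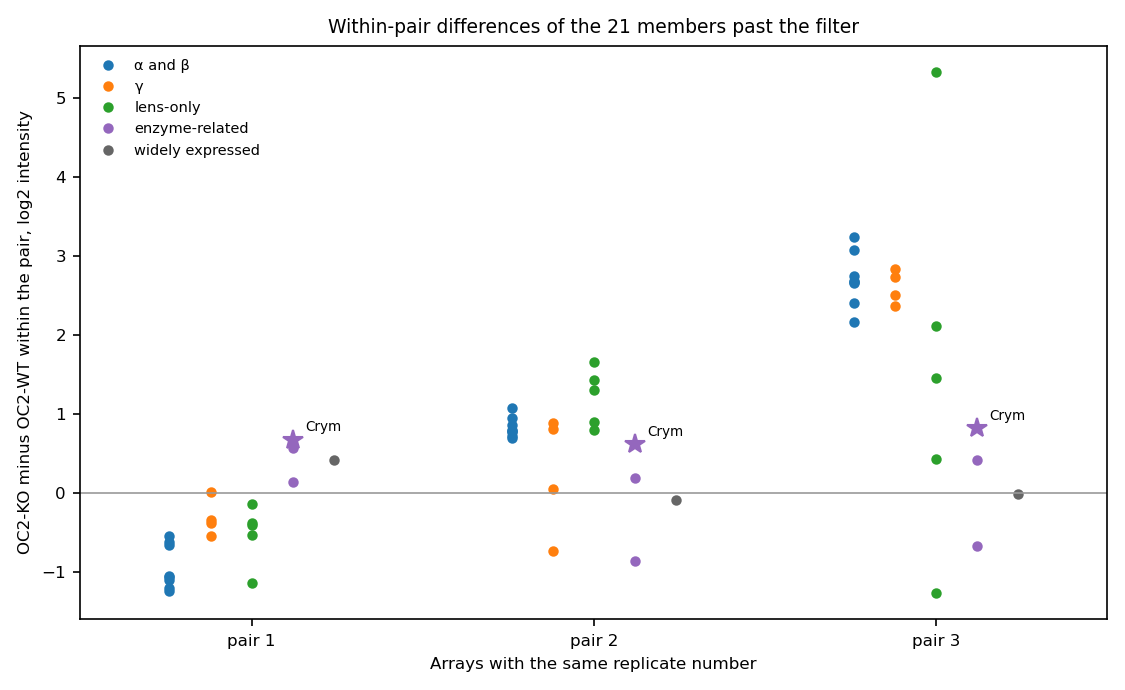
Difference of OC2-KO minus OC2-WT within each pair of same-numbered arrays (log2 intensity); each point is 1 of the 21 genes past the filter, coloured by group, and stars mark Crym. Crystallins lie mostly below 0 in pair 1 and at 2.16 to 3.23 in pair 3, while Crym lies between 0.61 and 0.82 in all pairs.

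The lens-only fibre genes were read on the same arrays, and 5 of the 9 measured passed the filter. Mip and Bfsp1 passed it only through their OC2-KO means (7.58 and 7.23, against 5.30 and 6.19 in OC2-WT). Lim2 passed only through its OC2-WT mean (7.24, against 6.90 in OC2-KO). None of the lens-only genes passed the test, and their median difference was 0.40, or -0.12 without WT 3. Mip read 7.79, 7.20 and 0.89 in OC2-WT against 7.66, 8.86 and 6.23 in OC2-KO. Its difference of 2.28 ± 1.75 (SE) was 0.08 without WT 3 and 0.58 with log2 values floored at 6. A dimmer Mip probe set, below the filter, differed by -0.26. The beaded filament gene Bfsp1 read 8.30, 7.06 and 3.22 against 7.89, 8.48 and 5.33, with a difference of 1.04 ± 1.36 (SE) that was 0.34 with that floor. Its partner Bfsp2 read 7.88, 6.94 and 6.54 against 7.48, 8.24 and 6.95. WT 3 was again the lowest OC2-WT array in each.

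Lim2, a fibre membrane protein, read 7.97, 7.18 and 6.57 in OC2-WT against 7.43, 7.97 and 5.30 in OC2-KO. Among the OC2-KO arrays KO 3 was the lowest in 4 of the 5 fibre genes past the filter, all but Grifin, and the highest in 0. Of the 12 crystallins KO 3 was the lowest in 5 (Cryaa, Cryba2, Cryba4, Crybb2 and Crygs) and the highest in 5 (Cryab, Cryba1, Crybb3, Crygd and Crygf). Grifin, a lens galectin without sugar binding, read 9.32, 8.09 and 7.14 against 8.18, 8.99 and 8.58, with WT 1 the highest and WT 3 the lowest array. The lens-only genes summed to 791 on KO 3 and to 1244 and 1943 on KO 1 and KO 2, where the β-crystallins summed to 25491, 26292 and 35397 (intensity).

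Of the lens-only genes below the filter, Birc7, an inhibitor of apoptosis, read 3.86, 2.25 and 1.95 in OC2-WT against 5.44, 3.77 and 6.33 in OC2-KO. Its groups overlapped by KO 2, and its difference was 2.49 ± 0.83 (log2, SE) in a limma fit without the filter, with an adjusted p of 1.00. With log2 values floored at 6 the difference was 0.11, so its size comes from intensities near background. That fit called Birc7 and Crym among the 28 genes at an unadjusted p of 0.05, against 2.54% of all probe sets. Gja3, a fibre connexin, Dnase2b, the nuclease that clears fibre nuclei, and Foxe3, a lens epithelial transcription factor, differed by -0.32 to 0.02 and overlapped. A dimmer Gja3 probe set differed by 0.81 and overlapped too. Dnase2b was high on both arrays of pair 1 (5.83 and 5.66) and at 0.72 to 2.06 on the other 4.

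The genes that many tissues express were not called. Tdrd7, an RNA granule protein needed for lens clarity, read 13.19, 12.95 and 13.33 in OC2-WT against 13.61, 12.86 and 13.32 in OC2-KO. Hsf4, the heat shock factor of the lens, read 6.61 to 7.01 in OC2-WT against 6.98, 7.55 and 3.95 in OC2-KO. Tdrd7 thus spanned 0.75 log2 units over the 6 arrays and Hsf4 stood out by its low value on KO 3.

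Other cell types moved with the arrays as well. Rod markers, all 6 measured past the filter, summed to 388866 on WT 3 and 324318 on KO 3 and to 111668 to 255613 on the other 4. Gnat1, Pde6b, Sag and Nrl were highest on WT 3 and KO 3. Prph2 (10.61 and 10.82, against 13.19 on KO 1) and Cnga1 (13.32 and 13.33, against 14.07 on KO 1) were not. Markers of the retinal pigment epithelium, 5 of 6 past the filter, summed to 82021 and 66233 on WT 3 and KO 3 and to 13761 to 27680 elsewhere. Most of this sum was Ttr (16.12 on WT 3 and 15.83 on KO 3, log2). Rpe65, Lrat and Rgr were also highest on WT 3 and KO 3, while Rrh was not (10.73 and 10.37, against 11.32 on WT 2). The rod and pigment epithelium sums, like the Actb ratio, were high on both arrays of pair 3. The α- and β-crystallins were lowest on WT 3 and not on KO 3: the α-crystallins summed to 2860 on WT 3 and 13835 on KO 3. Of 5 markers of cornea and conjunctiva none passed the filter, and of 5 lens epithelium genes Foxe3 and Cdh1 did not. The part of these cell types, lens cells included, and of RNA quality in the crystallin differences was not tested. Whether the crystallin transcripts came from the retina or from lens cells in the samples was not tested either. In whole retina fewer cells of a type and less RNA per cell cannot be told apart.

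**Figure D4:**
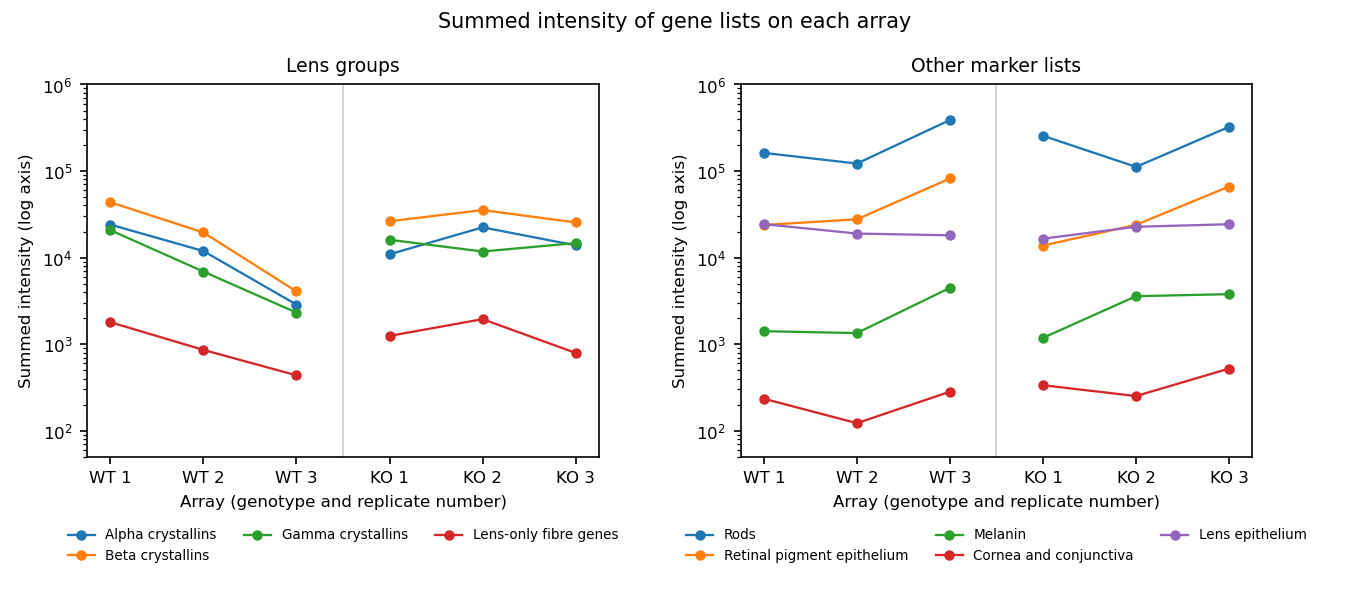
Summed intensity (log axis) of gene lists on each array, crystallin and lens-only groups at left and other marker lists at right; lines join the arrays of a genotype and carry no order. The α-, β-, γ-crystallin and lens-only sums are lowest on WT 3, where the rod and pigment epithelium sums, each carried by a part of its list, are highest.

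As a description over 6 arrays, which share pairs, each gene was set against the mean centred profile of the other crystallins past the filter. Pearson's r was 0.79 to 0.99 for the α- and β-crystallins, 0.98 for Crygs, 0.86 for Crygb, 0.51 for Crygd and 0.30 for Crygf. Among the fibre genes it was 0.91 for Grifin, 0.86 for Mip, 0.79 for Bfsp1, 0.69 for Bfsp2 and 0.25 for Lim2. Cryl1 reached 0.90 and Crym 0.53, Tdrd7 stood at -0.02 and Cryz ran opposite at -0.84. The genes outside the group that were most like the profile were Ssx2ip, Nol7, Atf2, Mtmr12, Zfp763, Tox, Efnb1, Polr1b, 9130019O22Rik and Ids, with r from 0.982 to 0.991. Their genotype differences were 0.09 to 0.75. The genes were picked for the highest r to a profile whose mean was itself higher in OC2-KO. High r and positive differences thus follow from the choice.

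Genes around the crystallins in function were counted too. Of 13 measured lens development factors 11 passed the filter and none the test, with Pax6, the eye master regulator, at 12.83 to 13.00 in OC2-WT against 12.54 to 12.97 in OC2-KO, and Prox1, which fibre cells need to elongate, at a difference of -0.42 ± 0.34 (SE). Of 9 small heat shock protein genes, relatives of the α-crystallins, 4 passed the filter and none the test. Hspb6 differed by 0.38 ± 0.28 and Hspb11 by 0.16 ± 0.21 (SE). Of 9 other lens genes 8 passed the filter and none the test. With the replicate block Gja1, a connexin of lens epithelium and astrocytes, and Caprin2, an RNA-binding protein of the fibres, passed the unadjusted p, at 0.93 and 0.65, 2 of 8 genes beside 4.19% of all probe sets, with an adjusted p of 0.999 for each in limma. Of 4 measured genes with a crystallin fold or crystallin-like name, 2 passed the filter and none the test. Crybg3 read 7.84 to 8.43 in OC2-WT against 8.49 to 8.54 in OC2-KO, a difference of 0.32 ± 0.23 (SE). Its groups did not overlap, with OC2-KO above, as was so for 1.72% of all probe sets.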

How the data were processed

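Retinas of adult OC2-KO and OC2-WT mice were measured on Affymetrix mouse genome arrays, 3 per genotype. The deposited table gives a linear intensity for each of 45101 probe sets, which the authors background-adjusted and scaled with MAS5 (version not given in the sources used here) to a 2% trimmed mean of 500 per array, so a change shared by all genes cannot be seen. The median intensity was 94.9 to 110.3. Precision is limited by how few arrays there are. No scanner file or detection call was used here.

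After log2 transformation and removal of 64 control probe sets, probe sets with a mean over 7 in either genotype were kept (21176), as in the study's methods. Differences were fitted with limma 3.58.1 in R 4.3.3 (lmFit and eBayes, no block, two-sided, 4 residual degrees of freedom) with Benjamini-Hochberg adjustment over all probe sets kept. For genes below the filter, the fit without it was used. Genes were named from the platform annotation, by probe sets with 1 symbol (34945), and the brightest probe set stood for a gene. Promoters came from a RefSeq table, the build of the array annotation not being named. The genes, lists and tests were chosen with earlier results of these data known. All 32 genes were described by role, other lists by their counts and at most 3 names each by smallest p. Both t-tests, other filters and scalings, left-out arrays and pairs, a replicate block and, added after seeing the data, an Xist term were tried. Fits were tested on simulated data.

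Groups came from the labels. Replicate numbers pair the arrays: the departures of same-numbered arrays from their genotype means correlated at 0.576, 0.590 and 0.585, those of other arrays at -0.429 to -0.135. Only these correlations pair them, since littermates are named without a litter number.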

Additional observations from a re-analysis of the deposited data

How the results depend on the processing

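The count of probe sets past the unadjusted p, 209, was 1144 without the filter, 127 with the filter at 8, 436 with array weights, 887 with the replicate block and 209 to 560 with arrays or pairs left out, the highest without KO 2; 0 passed after adjustment in each. Crym alone of the 21 genes passed under each scaling, trend, weight, floor and both t-tests and with the replicate block, which changed no other call among them. The member count was 2 without the filter (with Birc7), 2 with the Xist term (with Crygd) and 0 to 10 with arrays or pairs left out: 10 without WT 1, 6 without pair 1 (Cryab, Cryba1, Crybb3, Crygb, Grifin and Cryz, not Crym), 0 without pair 2 or pair 3. The median of the crystallins was 0.72 to 0.89 under other scalings, weights and probe set rules, 0.52 with the Xist term, and -0.14 without pair 3 to 1.72 without pair 1. That of the lens-only genes was -0.12 without WT 3 to 0.97 without WT 1, and 0.11 with a floor at 6, which also took Birc7 from 2.49 to 0.11. With the replicate block the SE was smaller for some genes, 0.47 for Bfsp1 (1.36 without) and 0.52 for Crygb (0.91).

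Signs turned in these cases; each cause was not tested. Without WT 3, Cryaa was -0.57, Cryba2 -0.43, Cryba4 -0.29, Crybb1 -0.15, Crybb2 -0.04, Crygd -0.01, Bfsp1 -0.44 and Grifin -0.12. Without pair 3, Cryaa was -0.13, Cryab -0.10, Cryba2 -0.16, Cryba4 -0.14, Crybb1 -0.24, Crygd -0.56, Crygf -0.15, Lim2 0.12 and Grifin -0.12. Without KO 3, Crygd was -0.14, Crygf -0.18 and Lim2 0.46. Crygd was also -0.11 without WT 2, -0.13 without KO 1 and -0.60 with the Xist term, Crygf -0.15 with that term, and Lim2 0.02 without WT 1. Tdrd7 was -0.00 without WT 2, -0.07 without KO 1, -0.05 without pair 1, -0.01 with the Xist term and -0.14 as the mean of its probe sets. Cryab was -0.13 on its only probe set with a plain suffix, which lies below the filter. Across leave-outs, Cryaa ranged from -0.57 to 1.81, Cryab from -0.10 to 1.51, Cryba2 from -0.43 to 1.73, Cryba4 from -0.29 to 2.00, Crybb1 from -0.24 to 1.92, Crybb2 from -0.04 to 1.80, Crygd from -0.56 to 1.51, Crygf from -0.18 to 1.79, Bfsp1 from -0.44 to 2.09, Lim2 from -0.91 to 0.46, Grifin from -0.12 to 1.17 and Tdrd7 from -0.07 to 0.30.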

Other observations

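Crybg1, a crystallin-fold gene outside the list of 32, lay below the filter. It read 4.54, 3.65 and 5.61 in OC2-WT against 2.34, 1.94 and 0.99 in OC2-KO. Every OC2-KO array lay below every OC2-WT array, as in 1.56% of probe sets past the filter, and that share was not computed without the filter. The difference was -2.84 ± 0.62 (log2, SE) in the limma fit without the filter, where no probe set passed the adjusted test. Every one of these values lies below the log2 floor of 6 used for Birc7, so the size of the difference comes from intensities near background. Crybg1 was not tested in the filtered fit.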
